A study of Mus musculus with 12 samples.

Results

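The cytosolic ribosomal protein genes were followed across 12 RNA-seq libraries of mouse splenic CD4+ T cells. They were picked by symbol alone: an Rpl or Rps name with a number and at most the ending a, x, l or al, together with Rplp0, Rplp1, Rplp2 and Rpsa. The rule found 84 of the 45777 genes in the table, and 83 of them passed the filter on low counts. Of the 84, 76 were the core genes of the family (46 of the large 60S subunit and 30 of the small 40S subunit) and 8 were variant copies of a core gene (Rpl3l, Rpl6l, Rpl10l, Rpl32l, Rpl36al, Rpl39l, Rps4l and Rps27l). The rule passes over core genes with other names, such as Rps3a1, Fau and Rack1, which are given with the neighbouring genes.

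All cells came from wild type Balb/c mice of 7 weeks by the labels and were cultured for 3 days with 0.5 ug/mL anti-CD3, an antibody that triggers the T-cell receptor complex. Each of the 4 groups held 3 libraries of polyA RNA: anti-CD3 by itself, or together with the bacterium Lactobacillus acidophilus, with FK506, or with both agents (the combination). The cell culture methods of the study state that the bacterium was inactivated by heat. FK506, also called tacrolimus, blocks the phosphatase calcineurin. The methods of the study name B6 mice for this experiment, and the strain could not be settled here. The labels name no animals, so the p-values measure the spread between these libraries, which may be technical.

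A cytosolic ribosome carries a single copy of nearly every protein of this family, the acidic stalk proteins P1 and P2 being the exception. Resting T cells hold few ribosomes and build many when they are activated, because growth and division need protein synthesis. Messages of the family begin with a C followed by a run of pyrimidines, the terminal oligopyrimidine or TOP tract, through which the TOR kinase and the RNA-binding protein LARP1 control their translation and stability. mRNA levels such as those given here do not measure that translation.

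Start sites of genes across the response are shown because TOP control is read from how a message begins. Rpl41, Rpl18 and Rps3 were among the genes with the largest falls in the combination, though without anti-CD3 replicate 2 the log2 fold changes of Rpl18 and Rps3 were -0.64 and -0.69, near the family's median of -0.62 in that fit. Rps6 is the substrate of the TOR pathway described below. Rplp0 and Rpsa stand for the stalk and the mRNA channel, and Rps27 and Rps7 had the log2 fold changes nearest to 0. Each window holds 40 bases before the RefSeq start in lower case and the first 20 transcribed bases in capitals, on the gene's strand.
Rpl41: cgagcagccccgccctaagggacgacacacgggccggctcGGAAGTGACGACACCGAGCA
Rpl18: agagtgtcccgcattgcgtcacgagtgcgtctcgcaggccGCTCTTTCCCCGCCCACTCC
Rps3: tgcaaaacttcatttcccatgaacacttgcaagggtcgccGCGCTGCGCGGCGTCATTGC
Rps6: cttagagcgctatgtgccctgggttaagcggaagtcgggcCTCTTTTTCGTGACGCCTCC
Rplp0: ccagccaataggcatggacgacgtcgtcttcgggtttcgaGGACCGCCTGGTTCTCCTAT
Rpsa: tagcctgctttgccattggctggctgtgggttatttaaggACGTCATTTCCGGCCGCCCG
Rps27: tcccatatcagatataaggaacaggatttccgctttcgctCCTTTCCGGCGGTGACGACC
Rps7: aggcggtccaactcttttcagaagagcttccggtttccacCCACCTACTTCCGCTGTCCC

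In the GRCm38.p6 build these windows lie at chr10:128549149-128549208 (Rpl41, minus strand), chr7:45718031-45718090 (Rpl18, plus), chr7:99483690-99483749 (Rps3, minus), chr4:86857348-86857407 (Rps6, minus), chr5:115559427-115559486 (Rplp0, plus), chr9:120127726-120127785 (Rpsa, plus), chr3:90213629-90213688 (Rps27, minus) and chr12:28635934-28635993 (Rps7, minus). Each spans the edge of the promoter entry and the start of the exon that follows it. For Rpl18 this start lies inside the annotated gene, which begins at 45715467. The other windows lie at the annotated start of their gene. RefSeq promoter sequence was matched for 62 of the 84 genes, 1 entry a gene, with 250 bases before and 50 after the start. A start at C followed by 4 pyrimidines was found in 13 of the 62 genes (21.0%), Rps6 and Rps27 among them, and in 2.5% of all 27025 promoters. CTTTCC on the gene's strand in the first 10 bases was found in 6 of the 62 (9.7%), with Rpl18 and Rps27 among them, and in 0.3% of all promoters. The ETS motif CCGGAA or its reverse complement TTCCGG stood in 30 of the 62 windows (48.4%) and in 15.2% of all. AAGATGGC on either strand, the YY1 motif, stood in 4 (6.5% against 2.9%), TATAAA on either strand in 6 (9.7% against 14.2%) and the E-box CACGTG in 5 (8.1% against 7.2%). Annotated starts can lie some bases from the start in these cells.

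The libraries held 45416397 to 64658165 counts. The 84 genes took 4.72% to 8.70% of the counts and, on the length-corrected FPKM scale, 13.4% to 20.4% of the summed FPKM. Of the 100 genes of highest mean FPKM, 58 belonged to the family. T-cell markers were present in all libraries (summed FPKM of Cd3e, Cd3d, Cd4, Trac, Lck and Thy1, 1022 to 1799), with Cd8a and Cd8b1 together at 2.21 to 9.02.

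Single libraries stood apart from their groups in these genes. Anti-CD3 replicate 2 held Rps14, Rpl18, Rps3 and Rpl41 at well over the level of the other two anti-CD3 libraries, 3475 FPKM for Rps14 against 1209 and 829. It had 6 of 76 core genes at over 2 times the mean of the other two libraries, after TMM scaling on a log2 scale. Combination replicate 1 held higher levels of the family than both other combination libraries in 74 of 76 core genes, with 27 of them over 1.5 times the mean of the other two. Of all genes tested, 3.93% stood that far above in this library. Anti-CD3 replicate 3 was the lowest of its group in 71 of 76 core genes, with 17 of them over 1.5 times below the mean of the others. Replicate 1 of each group had 63113961 to 64658165 counts, and no other library had over 54245588. Chi-squared per degree of freedom against counting error was 4.61 between combination replicates 2 and 3, but 78.7 and 86.8 between replicate 1 and these. It was 9.57, 60.2 and 59.5 with L. acidophilus, and 180 and 47.7 for replicates 2 and 3 with anti-CD3 and FK506. Counts of calls are therefore also given without anti-CD3 replicate 2 and combination replicate 1 where that changed them, and gene values where the call or its size rested on them. Leaving a library out does not show which library is typical of its group.

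**Figure D1:**
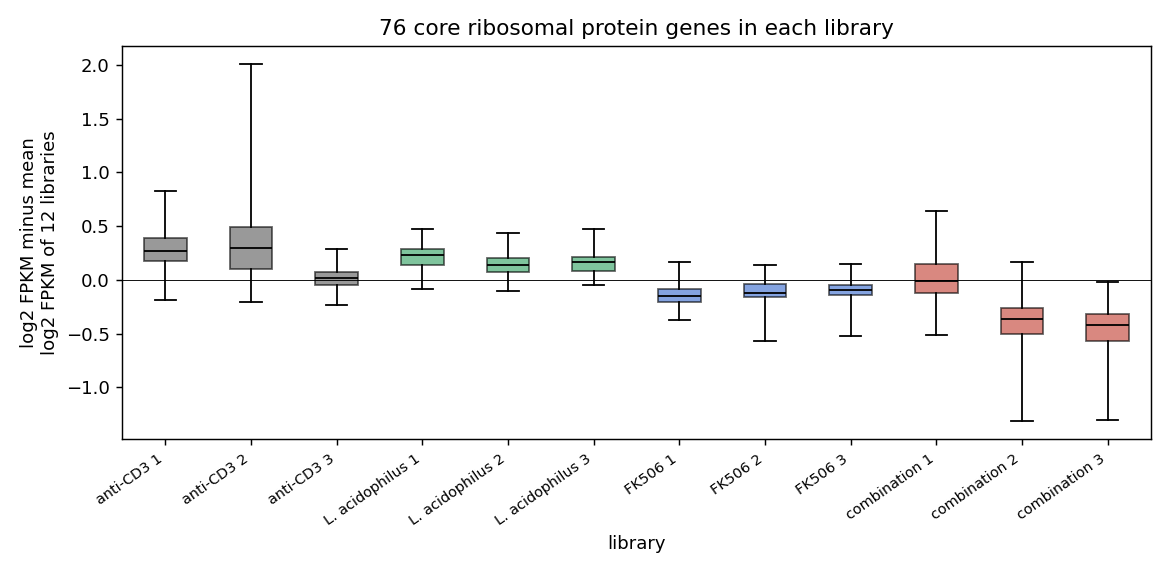
Each box shows the 76 core genes in a library, as log2 FPKM minus the gene's mean log2 FPKM over the 12 libraries; the line is the median, the box the quartiles and the whiskers the lowest and highest gene. The 3 FK506 libraries sit close together (medians -0.15 to -0.10), the combination libraries spread from -0.42 to -0.01, and the top whisker of anti-CD3 replicate 2 reaches 2.01.

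The family made up less of the library in the FK506 and combination groups. Its share of the summed FPKM was 20.4%, 20.2% and 17.0% with anti-CD3 alone, 18.98%, 18.13% and 18.52% in the L. acidophilus group, 14.95%, 15.96% and 15.96% in the FK506 group, and 16.67%, 14.01% and 13.36% in the combination. The means were 19.2% ± 1.92, 18.5% ± 0.426, 15.6% ± 0.580 and 14.7% ± 1.75 (SD, n = 3 each). Every library with FK506 lay below every library without it, narrowly so for combination replicate 1 against anti-CD3 replicate 3. The FK506 and combination libraries overlapped. These are shares: fewer cells of a type and less RNA per cell cannot be told apart in bulk RNA.

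Counts of the 60S genes were 1.55, 1.53 and 1.54 times those of the 40S genes with anti-CD3 alone and 1.491, 1.497 and 1.496 times with L. acidophilus. With FK506 the ratio was 1.45, 1.44 and 1.47, and with the combination 1.41, 1.45 and 1.48. The anti-CD3 libraries lay above all others, the L. acidophilus libraries came next, and the FK506 and combination libraries overlapped.

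**Figure D2:**
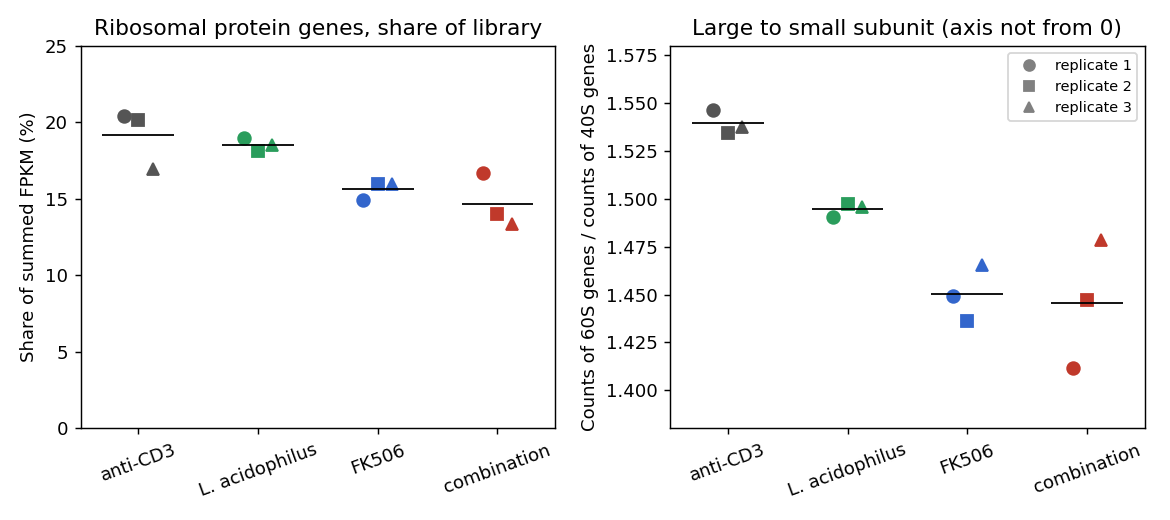
Left, share of summed FPKM (%) in the 84 genes for each library; right, counts of 60S genes divided by counts of 40S genes, on an axis that does not begin at 0. Symbols are replicates and lines are group means (n = 3); the share is 13.4% to 16.7% with FK506 or the combination and 17.0% to 20.4% without FK506, and the ratio is highest with anti-CD3 alone.

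In the combination against anti-CD3 alone, which asks what both agents together changed, 68 of 83 ribosomal protein genes fell and none rose (edgeR quasi-likelihood test, Benjamini-Hochberg adjusted p under 0.05 over 23585 genes). The median log2 fold change was -0.68, a 1.61-fold lower level, beside 0.02 over all genes tested. In the same comparison 21.8% of all genes were called lower and 21.5% higher. Of the 68 genes, 14 fell at least 2-fold (10.8% of all genes did). In 44 of 83 genes all 3 combination libraries lay below all 3 anti-CD3 libraries in FPKM, which held for 18.8% of all genes. Large subunit genes were called in 44 of 46 cases (median -0.78) and small subunit genes in 21 of 30 (median -0.58). Without anti-CD3 replicate 2 the count was 61, without combination replicate 1 it was 76, and without both it was 75.

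The size of this fall, and for some genes its sign, depends on the scaling. TMM factors, used above, set a trimmed mean of the log2 ratios between libraries to 0. Without any factors the median of all genes lay 0.205 higher in this comparison. On FPKM made equal in distribution between libraries (quantile normalisation, which the methods of the study name, with limma), the median of the family was -0.14, 11 genes were called lower and 4 higher, with Rpl24, Rps7 and Rps27 among the latter. Quantile normalisation gives every library the same set of values, so it can take out part of a shift shared by the most abundant genes, and this setting also differs from the main test in using limma on FPKM. All 11 of those genes were also lower in the main test. The 25 alternatives that gave a gene-level test were read here for 45 named genes only. Of these, Rps2, Rplp1, Rpl41, Rpl36al, Rps27l and Rpl6l were called lower in each. The rest of the family was not checked across all 25 in this comparison.

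**Figure D3:**
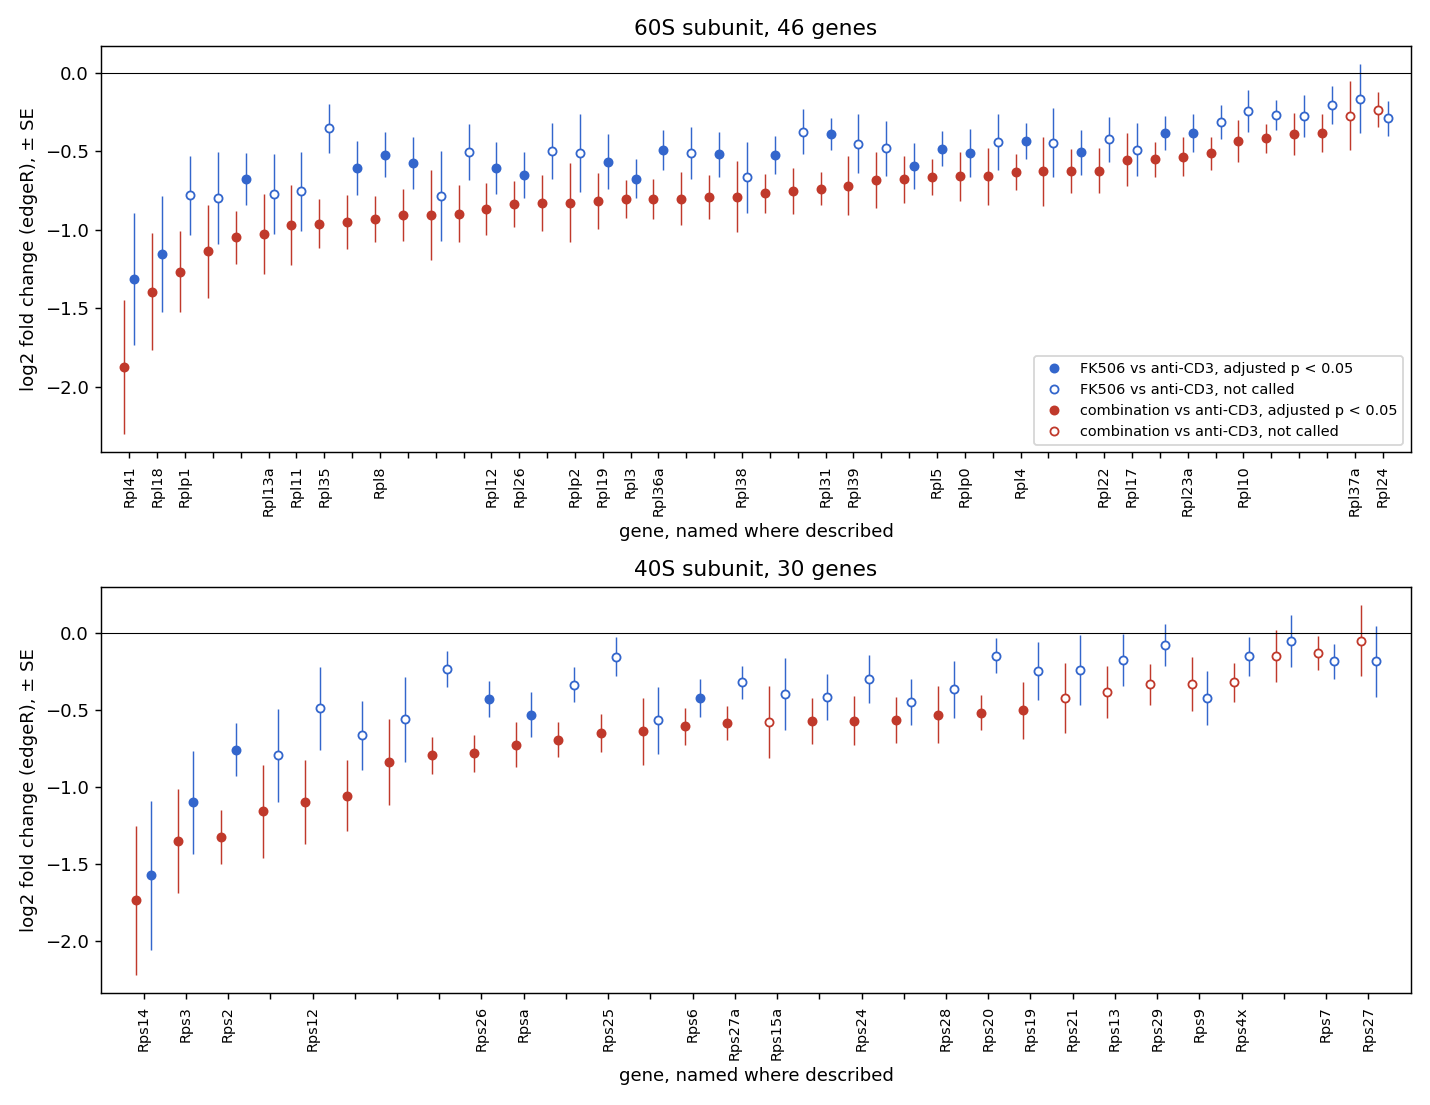
Log2 fold change from edgeR with its standard error for each core gene, ordered by the combination and named where the text describes it, for the combination (red) and FK506 (blue) against anti-CD3 alone; filled points passed an adjusted p of 0.05. All 76 genes lie below 0 in both comparisons, from -1.87 for Rpl41 to -0.05 for Rps27 in the combination.

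The genes with the largest falls were Rpl41, Rps14, Rpl18, Rps3 and Rps2. Rpl41, which encodes the smallest ribosomal protein and sits between the subunits, had 2826, 5487 and 1856 FPKM in the anti-CD3 libraries and 1764, 722 and 725 in those of the combination. L. acidophilus libraries held 2484, 2107 and 2486 and FK506 libraries 1789, 1212 and 1481. The combination lay below anti-CD3 without overlap, 3.66-fold lower (log2 fold change -1.87 ± 0.43 SE, adjusted p = 0.00400), and without anti-CD3 replicate 2 the log2 fold change was -1.31 (adjusted p = 0.0176).

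Rps14, a platform protein of the 40S subunit, had 1209, 3475 and 829 FPKM with anti-CD3 alone and 1021, 451 and 446 with the combination. The groups overlapped, since combination replicate 1 lay above anti-CD3 replicate 3. Its log2 fold change of -1.74 ± 0.48 (adjusted p = 0.0124) was -0.85 and not called without anti-CD3 replicate 2 (adjusted p = 0.0696). Rpl18 had 742, 2109 and 643 FPKM against 651, 438 and 424, a log2 fold change of -1.39 that became -0.64 without that library (adjusted p = 0.0174). Rps3, a protein at the mRNA entry of the 40S subunit, had 801, 1965 and 688 FPKM against 655, 462 and 454, and its log2 fold change of -1.35 became -0.69 (adjusted p = 0.00807).

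Rps2 lies beside Rps3 at the mRNA entry. It had 471, 715 and 461 FPKM in the anti-CD3 libraries, 527, 542 and 528 in the L. acidophilus libraries, 350, 327 and 380 in the FK506 libraries and 279, 242 and 240 in the combination. The FK506 libraries lay below all libraries without FK506, and the combination lay below FK506. Its fall was 2.51-fold against anti-CD3 (log2 fold change -1.33 ± 0.17, adjusted p = 0.000110, the lowest p of the family), and -1.06 without anti-CD3 replicate 2. Rps2 spans 24718121 to 24721927 on chromosome 17 and Rpl41 128548110 to 128549168 on chromosome 10 in GRCm38.p6.

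**Figure D4:**
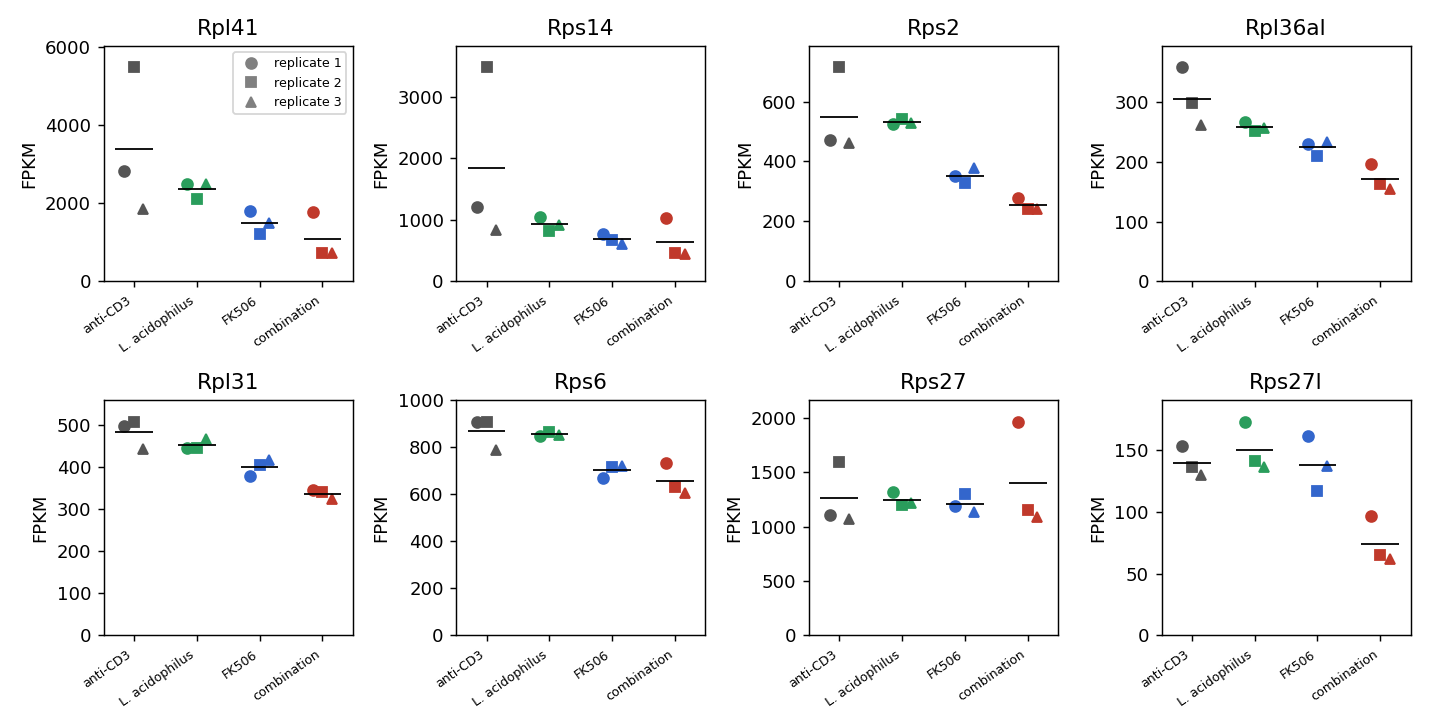
FPKM in each library for 8 genes, with symbols for replicates and lines for the mean of 3 libraries. Rps2, Rpl36al and Rpl31 step down from anti-CD3 through FK506 to the combination, anti-CD3 replicate 2 sets the mean of Rpl41 and Rps14, and Rps27 has its highest library, 1966 FPKM, in the combination while its copy Rps27l is at 61.6 to 96.3 there.

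The stalk of the 60S subunit, which recruits and activates the translation GTPases, fell in all 4 of its genes in the combination against anti-CD3 (median log2 fold change -0.85), though the call of Rplp2 was lost in 8 of 25 alternatives. Rplp1 was the most abundant gene of the whole family, with a mean of 2539 FPKM over 12 libraries. It had 3970, 4066 and 2480 FPKM in the anti-CD3 libraries and 2347, 1375 and 1330 in the combination, 2.40-fold lower (log2 fold change -1.27 ± 0.26, adjusted p = 0.00190). Rplp2, its partner, had 1850, 1365 and 1069 against 1309, 775 and 700 FPKM, with overlap (-0.83 ± 0.25, adjusted p = 0.0189). Rplp0, the base of the stalk, went from 921 to 1342 FPKM down to 755 to 910 (-0.66 ± 0.15, adjusted p = 0.00469), and Rpl12 next to it from 1756 to 2373 down to 1122 to 1610 (-0.87 ± 0.17, adjusted p = 0.00134).

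Rpl5 and Rpl11, which join the 5S rRNA and can bind Mdm2 when ribosome assembly fails, were both called lower. Rpl5 was at 1149, 1235 and 1016 FPKM against 892, 820 and 827 (log2 fold change -0.66 ± 0.11, adjusted p = 0.000658). Rpl11 was at 649, 1334 and 629 against 574, 491 and 462, so its -0.97 ± 0.25 (adjusted p = 0.00847) rested in part on anti-CD3 replicate 2 and was -0.50 without it (adjusted p = 0.00862). In both genes the groups did not overlap.

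The 4 genes around the peptidyl transferase centre, where peptide bonds form, were all lower (median -0.72). Rpl3 was at 1099, 1132 and 890 FPKM in the anti-CD3 libraries and 672, 731 and 673 in the combination (-0.80 ± 0.12, adjusted p = 0.000292), and FK506 alone already held it at 679, 704 and 739. Rpl8 fell 1.91-fold and Rpl4, whose loop lines the exit tunnel, 1.55-fold. Rpl10, the last large subunit protein to be added, changed least of these, with 1435, 1155 and 1158 FPKM against 1176, 1028 and 996, overlapping groups and a 1.35-fold fall (adjusted p = 0.0209).

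All 7 genes of the exit tunnel and its rim were lower (median -0.74). Rpl31, at the rim, was at 496, 507 and 442 FPKM in the anti-CD3 libraries, 445, 445 and 465 in the L. acidophilus libraries, 378, 404 and 416 in the FK506 libraries and 345, 340 and 324 in the combination. The combination lay below each other group (-0.74 ± 0.10 against anti-CD3, adjusted p = 0.000172). Rpl35, near the tunnel exit, had 984, 1070 and 1116 FPKM with FK506 and 905, 633 and 673 with the combination, and its log2 fold change was -0.96 ± 0.16 against anti-CD3. Rpl39, inside the tunnel, had 756, 931 and 701 FPKM against 739, 474 and 457, and combination replicate 1 overlapped the anti-CD3 libraries (-0.72 ± 0.19, adjusted p = 0.00909). Rpl17, Rpl19, Rpl23a and Rpl26 fell 1.45-fold to 1.79-fold.

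Of the mRNA channel of the 40S subunit, all 7 genes were lower (median -0.78). Rpsa, also described as a laminin receptor, went from 1684, 1955 and 1421 FPKM to 1305, 1119 and 1112 (-0.73 ± 0.15, adjusted p = 0.00195). Rps26, at the mRNA exit, went from 1522, 1800 and 1530 to 1125, 1068 and 1061 FPKM (-0.78 ± 0.12, adjusted p = 0.000255). Rps28 overlapped between groups and fell 1.45-fold. Rps6, the classical substrate of S6 kinase downstream of TOR, had 906, 910 and 789 FPKM in the anti-CD3 libraries, 850, 866 and 853 in the L. acidophilus libraries, 672, 715 and 721 in the FK506 libraries and 735, 631 and 606 in the combination. It was lower in the combination by 1.53-fold (-0.61 ± 0.12, adjusted p = 0.00176), but its log2 fold change was 0.027 on quantile-normalised FPKM. Its phosphorylation, the usual measure of S6 kinase activity, was not analysed here. Rps27a, made as a fusion with ubiquitin, fell 1.502-fold, and Rps19 and Rps24, which are mutated in Diamond-Blackfan anaemia, were 1.42-fold and 1.49-fold lower with overlapping groups.

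Rpl22, Rpl13a and Rpl38 are ribosomal proteins with described roles beyond the ribosome or for chosen messages, and Rpl22 is needed for the development of alpha-beta T cells. Rpl22 had 174, 156 and 142 FPKM in the anti-CD3 libraries and 143, 106 and 104 in the combination, with a slight overlap (-0.62 ± 0.14, adjusted p = 0.00387). Rpl13a and Rpl38 fell 2.04-fold and 1.73-fold, both with overlapping groups.

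Several of these calls rested on single libraries. Rps19 was called in 8 of the 25 alternatives, and its log2 fold change ran from -0.80 to -0.35 when single libraries were left out (edgeR, highest adjusted p = 0.170, without combination replicate 3). Its call was lost without any 1 of 10 libraries, all but anti-CD3 replicate 3 and combination replicate 1. Rps28 was called in 15 of 25, with -0.71 to -0.31 over the left-out libraries (highest adjusted p = 0.150, without anti-CD3 replicate 1), and also lost its call without anti-CD3 replicate 2, FK506 replicate 3, or combination replicate 2 or 3. Rpl10, Rplp2 and Rpl38 each lost their call without anti-CD3 replicate 1 and without combination replicate 2 or 3, with highest adjusted p of 0.0829, 0.0818 and 0.0618. Rpl17 lost it without anti-CD3 replicate 2 or combination replicate 2 or 3 (highest adjusted p = 0.0846), Rps24 without combination replicate 2 or 3 (0.0551), and Rps14 also without either of these. The direction was lower in each of these left-out fits.

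Of the 11 core genes that were not called lower in the combination, 9 belong to the small subunit, among them Rps4x, Rps7, Rps9, Rps13, Rps15a, Rps21, Rps27 and Rps29, and Rpl24 and Rpl37a belong to the large one. Rps27, a zinc-finger protein of the 40S subunit, had 1107, 1598 and 1074 FPKM in the anti-CD3 libraries and 1966, 1156 and 1093 in the combination (-0.05 ± 0.23, adjusted p = 0.883). Rps7 had 596, 714 and 614 against 738, 653 and 635 FPKM (-0.13 ± 0.11, adjusted p = 0.371). The signs of Rps7 and Rps27 were positive without TMM factors and on the FPKM scale. A p above the threshold does not show that these genes stayed level, and the interval of Rps27 in particular is wide. Rps9 had the next highest level after Rplp1, 2183 FPKM on average, and 1891, 2965 and 2091 FPKM against 2043, 2423 and 1952 (-0.33 ± 0.18, adjusted p = 0.151).

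The variant copies did not follow their parents in all cases. Rps27l, a copy of Rps27 induced by p53, had 153, 137 and 130 FPKM in the anti-CD3 libraries, 173, 141 and 137 in the L. acidophilus libraries and 161, 117 and 137 in the FK506 libraries. In the combination it was at 96.3, 65.3 and 61.6 FPKM, below all 9 other libraries. Its fall was 2.13-fold against anti-CD3 (-1.09 ± 0.18, adjusted p = 0.000575) and its log2 fold change against FK506 was -0.95 ± 0.18 (adjusted p = 0.00460), whereas FK506 alone against anti-CD3 gave -0.14 ± 0.18 (adjusted p = 0.650). Parent and copy share 76.1% of the bases of their aligned reading frames. Rpl36a and Rpl36al, 87.9% alike, were both lower: Rpl36a had 813, 761 and 692 against 526, 500 and 475 FPKM (-0.80 ± 0.13), and Rpl36al 359, 298 and 261 against 197, 163 and 155 (-1.04 ± 0.15, adjusted p = 0.000162).

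The other copies were weakly expressed. Rpl6l had 29.1 to 39.5 FPKM in the anti-CD3 libraries and at most 23.8 in the combination (-0.74 ± 0.17, adjusted p = 0.00406). Rps4l (1.65 to 4.10 FPKM), Rpl32l (0.547 to 1.55 FPKM, 18 to 68 counts) and Rpl39l (0.170 to 0.597 FPKM, 9 to 26 counts) did not pass the test. Rpl3l, a gene of heart and skeletal muscle, had at most 5 counts in any library, and Rpl10l, a gene of the testis, had 0 counts in all 12.

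FK506 alone against anti-CD3 alone, which asks what the drug changed, gave 28 of 83 genes lower and none higher. The median on the log2 scale was -0.46 beside 0.00 over all genes. All genes were called lower in 8.81% and higher in 10.2% of cases. In 50 of 83 genes the FK506 libraries lay below all anti-CD3 libraries (12.0% of all genes did). The large subunit gave 21 of 46 calls and the small subunit 6 of 30. Rpl3 (-0.67 ± 0.12, adjusted p = 0.00316), Rpl26 (-0.65 ± 0.15, adjusted p = 0.00977), Rps2 (-0.76 ± 0.17, adjusted p = 0.0102) and Rpl5 (-0.48 ± 0.11, adjusted p = 0.0123) were among them. Only Rpl41, Rps14, Rpl18 and Rps3 fell at least 2-fold, and the share of all genes at that cut-off is not given here. These are 4 of the 6 genes that stood at over 2 times the other libraries in anti-CD3 replicate 2. In that order, their calls held in 11, 14, 9 and 13 of 25 alternatives. Their weakest log2 fold changes over the alternatives were -0.75, -0.69, -0.39 and -0.44. The count of calls was not stable: it was 11 without anti-CD3 replicate 2, 15 without anti-CD3 replicate 1, 49 without anti-CD3 replicate 3, 5, 2 and 14 without FK506 replicates 1, 2 and 3, 48 without combination replicate 1 and 51 with DESeq2. On quantile-normalised FPKM 1 gene was called. The median stayed between -0.58 and -0.37 when single libraries were left out.

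For L. acidophilus alone no gene of the family passed the threshold. The edgeR test called 0 of 83 lower and 0 higher (0.0509% and 0.178% of all genes were called), and DESeq2 also called 0. In the edgeR test 3 of 83 genes had an unadjusted p under 0.05, beside 3489 of all 23585 genes tested. The median log2 fold change was -0.11, and the sign was negative in 71 of 83 genes. With single libraries left out the median ran from -0.23 (without anti-CD3 replicate 3) to -0.049 (without anti-CD3 replicate 2). On quantile-normalised FPKM it was 0.033. By replicate number, the median of the 76 core genes was -0.17, -0.28 and 0.13, so the direction was not the same in all 3. Rps2 was at 527, 542 and 528 FPKM beside 471, 715 and 461 with anti-CD3 (-0.13 ± 0.17, adjusted p = 0.779), and Rps6 gave -0.10 ± 0.12. The largest difference was that of Rps14 (-1.10 ± 0.48, adjusted p = 0.313), the gene most raised in anti-CD3 replicate 2.

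The combination against FK506 alone asks what L. acidophilus added to the drug. Here 9 of 83 genes fell (10.8%) and none rose, while 10.9% of all genes were called lower and 8.18% higher, so the share of the family was close to that of all genes. Rpl31, Rpl35, Rpl36al, Rps2, Rps20, Rps25 and Rps27l were among the 9, none of which fell by 2-fold. Rps27l was called in all 25 alternatives, Rps25 in 21, Rpl35 in 20, Rps2 in 15, Rpl31 and Rpl36al in 14 each and Rps20 in 13. The median over the family was -0.22. Without combination replicate 1 the count was 27 and the median -0.40, and without combination replicate 3 the median was -0.13. Without both anti-CD3 replicate 2 and combination replicate 1 the count was 44. The shares of all genes called are not given here for fits with libraries left out, so these counts cannot be set against them. The calls numbered 2 without FK506 replicate 3, combination replicate 2 or combination replicate 3, and 4 without FK506 replicate 2, L. acidophilus replicate 2 or L. acidophilus replicate 3.

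Against L. acidophilus alone the combination was lower in 51 of 83 genes and higher in none (17.0% and 16.6% of all genes), with a median of -0.56. All 3 combination libraries lay below all 3 L. acidophilus libraries in 53 of 83 genes, beside 21.1% of all genes. In this comparison 4 genes fell at least 2-fold, namely Rpl41, Rps2, Rps12 and Rps27l. The share of all genes at that cut-off is not given here, so the 4 cannot be set against it. Rps12, which had 2328, 2164 and 2187 FPKM in the L. acidophilus libraries and 1749, 962 and 907 in the combination, gave -1.01 ± 0.27 (adjusted p = 0.0132), and Rps2 -1.19 ± 0.17 (adjusted p = 0.000373). By replicate number, the median of the core genes was -0.30, -0.67 and -0.73, with 71, 76 and 76 of 76 genes lower, and with the number as a block the test called 58. Without combination replicate 1 the count was 68, and without combination replicate 2 it was 34. Without both combination replicate 1 and anti-CD3 replicate 2 it was 75, and with quantile normalisation 11 genes were lower and 2 higher.

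Whether the combination differed from the sum of both single effects was tested by the interaction term. No gene of the family was called by edgeR (3.00% of all genes were lower and 1.35% higher than the sum), and DESeq2 called 2. In the edgeR test 4 of 83 genes had an unadjusted p under 0.05, beside 4634 of all 23585 genes tested. The median departure was -0.10. The lowest adjusted p, 0.0568, belonged to Rps27l (-0.97 ± 0.26), and Rps2 gave -0.43 ± 0.24 (adjusted p = 0.365). Without combination replicate 1 the test called 2 genes and the median was -0.27. Without that library and anti-CD3 replicate 2 it called 7 with a median of -0.34.

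Neighbouring genes of the same machinery were read from lists in the same fit. Of all genes, 21.8% were called lower and 21.5% higher in the combination against anti-CD3. With FK506 against anti-CD3 these shares were 8.81% and 10.2%. Of 8 ribosome genes outside the symbol rule, 5 fell in the combination against anti-CD3 (median -0.68). Rack1, a 40S scaffold protein, gave -1.04 ± 0.21, Fau, the source of a 40S protein, -0.69 ± 0.21, and Rps3a1 -0.33 ± 0.10, all called. Of 14 other TOP messages 9 fell and none rose (median -0.60), and with FK506 alone 4 fell. Eef2, the translocation factor, was at 1781 to 2128 FPKM in the anti-CD3 libraries and 1179 to 1517 in the combination (-0.67 ± 0.14), and with FK506 it gave -0.66 ± 0.14. Eef1a1, the most abundant of them, gave -0.32 ± 0.15 (adjusted p = 0.102). On quantile-normalised FPKM 2 of the 14 were called lower and 1 higher, and 1 of the 8 was called lower.

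Genes that build ribosomes gave other counts. Of 25 genes for RNA polymerase I and ribosome assembly, 23 fell in the combination against anti-CD3 (median -1.23), 2 fell with FK506 alone (median -0.08), and 23 fell in the combination against FK506 (median -1.04). The departure from the sum was called for 16 of 25, all negative (median -0.87), beside 0 of 83 ribosomal protein genes. Myc, which drives ribosome production, was at 89.4 to 94.0 FPKM in the anti-CD3 libraries, 58.4 to 82.2 in the FK506 libraries and 22.6 to 28.3 in the combination (departure -1.29 ± 0.22, adjusted p = 0.0107). Nolc1, a nucleolar phosphoprotein, was at 49.97 to 65.17, 51.8 to 68.2 and 20.8 to 23.8 FPKM (departure -1.28 ± 0.20, adjusted p = 0.00774). Quantile normalisation gave 23 of 25 lower and 2 higher in the combination against anti-CD3 (median -0.93). The difference between the lists was not tested.

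The 78 genes of the mitochondrial ribosome, which makes the proteins encoded by mitochondrial DNA, fell in 75 cases in the combination against anti-CD3 (median -0.89), in 13 with FK506 (median -0.40) and in 33 in the combination against FK506 (median -0.52). Over the 25 alternatives these counts ran from 62 to 75, from 2 (without FK506 replicate 2) to 28 (DESeq2), and from 14 (without combination replicate 3) to 64 (without both anti-CD3 replicate 2 and combination replicate 1). With quantile normalisation 66 of 78 were lower and 1 higher against anti-CD3, beside 11 of the 83 cytosolic genes. On the TOR list of 15 genes 8 fell and 2 rose in the combination against anti-CD3 (21.8% and 21.5% of all genes). With FK506 2 fell and 3 rose (8.81% and 10.2% of all genes). On quantile-normalised FPKM 5 fell and 3 rose in the combination, and the median moved from -0.28 to -0.10. Larp1 fell with FK506 (-0.52 ± 0.11) and further in the combination (-1.30 ± 0.12), Eif4ebp1, a translation inhibitor that TOR inactivates, gave -2.26 ± 0.23 and -2.84 ± 0.24, and Mtor -0.57 ± 0.11 in the combination. Tsc1, which restrains TOR, rose with FK506 (0.41 ± 0.13) and in the combination (0.79 ± 0.13), as did Eif4ebp2, the sister of Eif4ebp1 (0.30 ± 0.094 and 0.26 ± 0.094). Rheb, which activates TOR, rose with FK506 (0.47 ± 0.096).

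**Figure D5:**
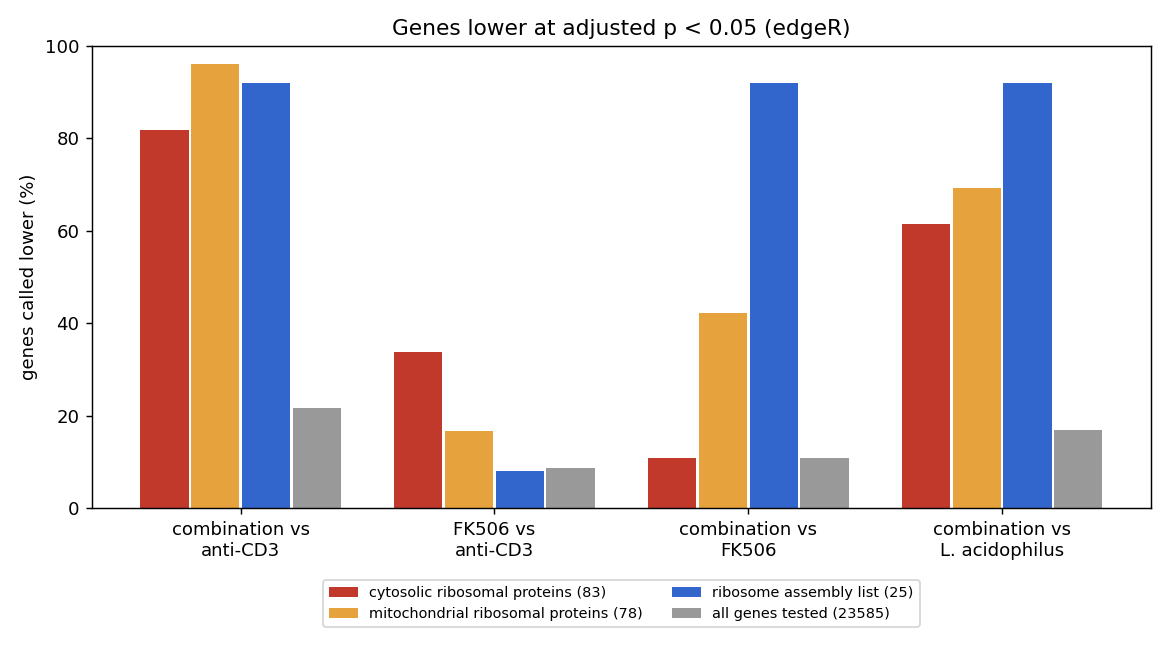
Percent of genes called lower (edgeR, adjusted p under 0.05) in 4 comparisons for the 83 cytosolic ribosomal protein genes, 78 mitochondrial ribosomal protein genes, 25 ribosome assembly genes and all 23585 genes tested. With all 12 libraries in the fit, the cytosolic family is at 81.9%, 33.7%, 10.8% and 61.4%. In the combination against FK506 it is level with all genes in this fit, while the assembly genes are at 92.0%.

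Ribosomal protein genes have many processed pseudogenes, whose near-identical sequence can take or give reads. The table held 224 pseudogene rows, which together had 4.353 to 5.605 counts per 100 counts of the family in each library. Of the 181 rows tested, 67 were lower and 1 higher in the combination against anti-CD3, beside 21.8% and 21.5% of all genes. Adding the counts of each pseudogene to its parent left 68 members called in that comparison, 29 with FK506 and 52 against L. acidophilus. Values of single genes remain uncertain to the extent that reads were split between copies.

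Markers of T cells and of other cells moved with the groups. The sum over the 6 T-cell markers was 1066 to 1269 in the anti-CD3 libraries, 1042 to 1205 in the L. acidophilus libraries, 1022 to 1163 in the FK506 libraries and 1444 to 1799 in the combination. Cd3e (0.76 ± 0.10, adjusted p = 0.000129), Cd4 (0.56 ± 0.10) and Trac (0.70 ± 0.16) were called higher in the combination against anti-CD3, and none of the 6 was called lower there. With FK506 against anti-CD3, Lck was called lower (-0.60 ± 0.17, adjusted p = 0.0309). The summed FPKM of 8 B-cell markers was 38.0 to 61.2 in the anti-CD3 libraries, 25.5 to 36.9 in the L. acidophilus libraries, 229 to 463 in the FK506 libraries and 129 to 153 in the combination, and 7 of 8 were called higher with FK506 and 6 of 8 with the combination. The sum of 8 myeloid markers was 0.104 to 0.178, 0.146 to 0.740, 0.925 to 7.00 and 19.6 to 44.4, with S100a8 at 0 in all libraries. Markers of naive or resting T cells summed to 289 to 510 in the anti-CD3 libraries, 404 to 464 in the L. acidophilus libraries, 470 to 634 in the FK506 libraries and 632 to 934 in the combination. Klf2 and S1pr1 were called higher in both comparisons with anti-CD3, and Satb1 was lower in the combination. The 2 NK markers together reached at most 1.19 FPKM. The part of these cells and states in the ribosomal protein result was not tested.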

How the data were processed

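Estimated counts per gene, whole numbers made with StringTie per the labels' processing notes, and FPKM values scaled to length and depth were deposited by the authors in a table of 45777 genes; the 12 TPM columns were not used. The submitters' processing notes name bcl2fastq 2.20.0, Trimmomatic, HISAT2 2.1.0, StringTie 2.1.3b and the GRCm38 (mm10) build. How reads that fit several copies were treated is not given in the sources used here. The methods name quantile normalisation, but the deposited FPKM sums differed between libraries (380445 to 486334).

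The members and all lists were chosen with earlier results of these data known. Of all genes, 23585 had a nonzero count in 3 libraries or more and were tested in R 4.3.3 with edgeR 4.0.16 (TMM factors, 1 mean per group, quasi-likelihood test, 8 residual degrees of freedom, Benjamini-Hochberg adjustment over all genes tested). SE was taken as the size of the fitted log2 change over the root of its F value. Library totals were 45416397 to 64658165 counts, so all core genes were counted at 1812 or more per library and replicate spread, not counting error, limits precision. With 3 against 3, an exact permutation test cannot go below p = 0.1.

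Genes were named by a rule: the 5 highest and 5 lowest fold changes in the combination against anti-CD3, the 3 highest and 3 lowest in 3 other comparisons, the 5 highest and 5 lowest levels, listed roles, and variant copies with their parents. Other genes named in a comparison (Rps20, Rps25 and those not called) complete its count and were chosen after their values were seen. Some genes count in the totals and are not reported by name here. Alternatives were DESeq2 1.42.0, limma 3.58.1 on log2(FPKM + 1), log2(FPKM + 0.1) and quantile-normalised values, other factors and filters, a replicate block, the compared libraries only, pseudogene counts added to parents, and each library left out; leaving out anti-CD3 replicate 2 and combination replicate 1 together was added after seeing the data.

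Deviations of same-numbered libraries from their group means correlated at 0.499, 0.337 and 0.266 for anti-CD3 and L. acidophilus and at 0.219, 0.163 and 0.146 for L. acidophilus and the combination, which met the rule for pairs (each over 0.1); the main fit had no block, and blocked counts stand beside it. Elsewhere at least 1 correlation was under 0.1. The labels do not say what a number marks. Promoters (RefSeq, GRCm38.p6) were searched in Python, and reading frames were taken from GENCODE transcripts and aligned with Biopython.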

Additional observations from a re-analysis of the deposited data

How the results depend on the processing

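The members called in the combination against anti-CD3 numbered 54 to 76 when single libraries were left out (median -0.83 to -0.61), 14 with an added 2-fold cut-off, and 15 (11 lower, 4 higher) with a median of -0.14 on quantile-normalised log2(FPKM + 1). For FK506 against anti-CD3 the count was 2 to 49 with single libraries left out, 2 at an adjusted p under 0.01, 4 with the 2-fold cut-off, 51 with DESeq2, 5 with limma on log2(FPKM + 1) and on log2(FPKM + 0.1), 1 on quantile-normalised values (median -0.11), 18 without factors and 4 with only the 6 libraries compared. For the combination against FK506 it was 2 to 27 with single libraries left out (median -0.40 to -0.13). It was 2 at an adjusted p under 0.01, 0 with the 2-fold cut-off, 4 with limma on either log2 scale and 5 without factors. On quantile-normalised values it was 2 (median -0.026), and it was 44 without both anti-CD3 replicate 2 and combination replicate 1. For the combination against L. acidophilus it was 34 to 68 with single libraries left out, 33 at an adjusted p under 0.01 and 4 with the 2-fold cut-off. It was 13 (11 lower, 2 higher) on quantile-normalised values (median -0.13) and 75 without both anti-CD3 replicate 2 and combination replicate 1. For the departure it was 0 to 2 with single libraries left out (median -0.27 to 0.02), 2 with DESeq2 and 7 without both libraries (median -0.34). For L. acidophilus against anti-CD3 it was 0 in all 28 of these. The cause of these changes was not tested, except that an added 2-fold or stricter p cut-off removes calls by construction.

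With the replicate block the counts were 71, 32, 0, 10, 58 and 1, in the order combination, FK506 and L. acidophilus against anti-CD3, combination against FK506, against L. acidophilus, and departure; none differed from the main count by over 1.5 times apart from the single gene in the departure.

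As shares of counts the family held 7.69%, 7.19%, 5.84% and 5.31% in the 4 groups. With pseudogene rows added the FPKM share was 19.6% with L. acidophilus and 16.4% with FK506, and without the 10 most abundant other genes it was 19.8% and 16.9%.

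Among single genes in the combination against anti-CD3, the quantile-normalised log2 fold change turned positive for Rpl10 (0.17), Rpl17 (0.049), Rpl23a (0.0028), Rplp0 (0.0054), Rps6 (0.027), Rps19 (0.053), Rps24 (0.22), Rps27 (0.52), Rps27a (0.060), Rps28 (0.065), Rps29 (0.25), Rps4x (0.30) and Rps7 (0.47), and negative for Rpl39l (-0.012). Limma on either log2(FPKM) scale gave 0.13 for Rps27 and 0.075 and 0.076 for Rps7, and no factors 0.16 and 0.079. Rps27 ranged from -0.40 to 0.18 and Rpl39l from -0.090 to 0.53 when single libraries were left out.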
